A study of Mus musculus with 56 samples.

Results

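The 36 genes described here code for collagens, other matrix proteins, matrix-remodelling enzymes, cytoskeletal proteins and markers of hepatic stellate cells, and were chosen as a list by name from a table of 52230 genes. RNA-seq covered the livers of 56 male mice of a Gckr-446L knock-in line (B6N). Gckr codes for the glucokinase regulatory protein (GKRP), which holds glucokinase (GK) in the hepatocyte nucleus, and position 446 of it is a proline (P) in wild-type mice and a leucine (L) in the variant. The variant is in the germ line, so all cells of the liver carry it. For 20 weeks all groups ate high-fat pellets and drank water with glucose and fructose (HFHSD), and 3 of the 6 groups also had a glucokinase activator (GKA) at 3 mg/kg, by a route the labels do not give. The groups without GKA had 9 PP, 8 PL and 10 LL mice, and those with GKA had 10 PP, 8 PL and 10 LL mice. The labels do not give the age of the mice. A further PP mouse, mouse 7, had been removed because its expression profile stood apart, so its values are given separately. Gckr itself was read in every liver (117 to 232 CPM), but its level does not check the genotype labels, since the variant is a substitution.

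Stellate cells lie between hepatocytes and the sinusoid endothelium and store vitamin A as retinyl esters. In an injured liver they can turn into myofibroblast-like cells, which lose their vitamin A, make smooth muscle actin and deposit fibrillar collagen, the main component of scar tissue. Collagens I, III and V form fibrils, collagen IV forms basement membranes, and enzymes such as prolyl hydroxylases, lysyl oxidases and metalloproteinases modify, cross-link and cut the matrix.

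Most of these genes were expressed at a low level in these livers. Levels are normalised read counts (CPM, read counts scaled to the library size with TMM factors). Where genes are compared with each other, levels are in TPM, which also takes transcript length into account. Fn1 had the highest median level at 209 TPM. It codes for fibronectin, of which hepatocytes secrete the plasma form. The proteoglycan Dcn (decorin) followed at 40.5 TPM, the proteoglycan Bgn (biglycan) at 15.6 TPM and Sparc, a secreted collagen-binding protein, at 9.55 TPM. Fn1 was above Dcn in 55 of 55 mice, Dcn above Bgn in 53 mice, and both Bgn above Sparc and Sparc above Reln in 47 mice. Below Sparc the order was less sharp, since Reln (6.12 TPM) was above Vim (5.42 TPM) in 31 mice and Vim above Col14a1 (4.96 TPM) in 28 mice, so these neighbours do not differ beyond their spread. Col3a1, the chain of type III collagen, had a median of 4 TPM (range 0.3 to 26.9). Col1a2 and Col1a1, the chains of type I collagen, had medians of 0.779 and 0.275 TPM. The order was nearly the same on CPM per kilobase of the main transcript (Spearman rho 0.977 across the 36 genes, which are not independent). Reln was an exception, at place 5 on TPM and place 10 on CPM per kilobase. There it stood at 2.41, below Col14a1 (5.15) and Vim (3.5).

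The low levels limit what can be said of several genes. Col1a1 had between 1 and 120 reads per mouse (median 15) and Col3a1 between 37 and 712. Timp1, the metalloproteinase inhibitor often induced with collagen, had no read in 21 of 55 mice and at most 14 reads. Lox, a collagen cross-linking oxidase, had no read in 34 mice and 41 reads in all. A count of 0 at the median depth allows a level of up to 0.458 CPM (3 reads), for counting error only. The filter on low counts removed Timp1, Mmp2, Lox, Loxl1 and Thbs1 from all 12 comparisons. Acta2 was tested in 2 comparisons, Fbn1 in 4 and Des in 7, and 25 genes were tested in all 12.

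Stellate cell marker genes were detected in every liver. Lrat, which makes the retinyl esters, had at least 23 reads in each mouse and Reln, a secreted glycoprotein of stellate cells, at least 80 reads. The PDGF receptor Pdgfrb had at least 12 reads. Des, the intermediate filament protein desmin, had 1 to 17 reads. In whole liver, fewer cells of a type and less RNA per cell cannot be told apart.

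The fibrillar collagens varied more between mice of the same group than between groups. Col1a1 without GKA was 0.149 to 12.5 CPM in PP (median 2.28), 0.498 to 8.32 CPM in PL (median 1.47) and 0.632 to 5.89 CPM in LL (median 3.06). With GKA it was 1.14 to 8.63 CPM in PP (median 4.08), 0.947 to 4.42 CPM in PL (median 1.35) and 0.524 to 14.4 CPM in LL (median 2.78). The 6 groups overlap throughout, and the highest liver of all is LL with GKA mouse 48. Col3a1 without GKA was 8.06 to 46.3 CPM in PP (median 19.1), 8.35 to 33.6 CPM in PL (median 11) and 5.93 to 33.8 CPM in LL (median 17.5). With GKA the medians of PP, PL and LL were 28, 10.8 and 17.2 CPM, and mouse 48 of LL reached 85.3 CPM. Col1a2 had its lowest group median in PL (3.71 CPM) and its highest in PP with GKA (8.07 CPM). PP with GKA had the highest median of the 6 groups for 17 of the 36 genes, and PL with GKA had the lowest median for 13 genes. This was not counted over all genes, and many of the 36 varied together across mice, so the counts are a description only.

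**Figure D1:**
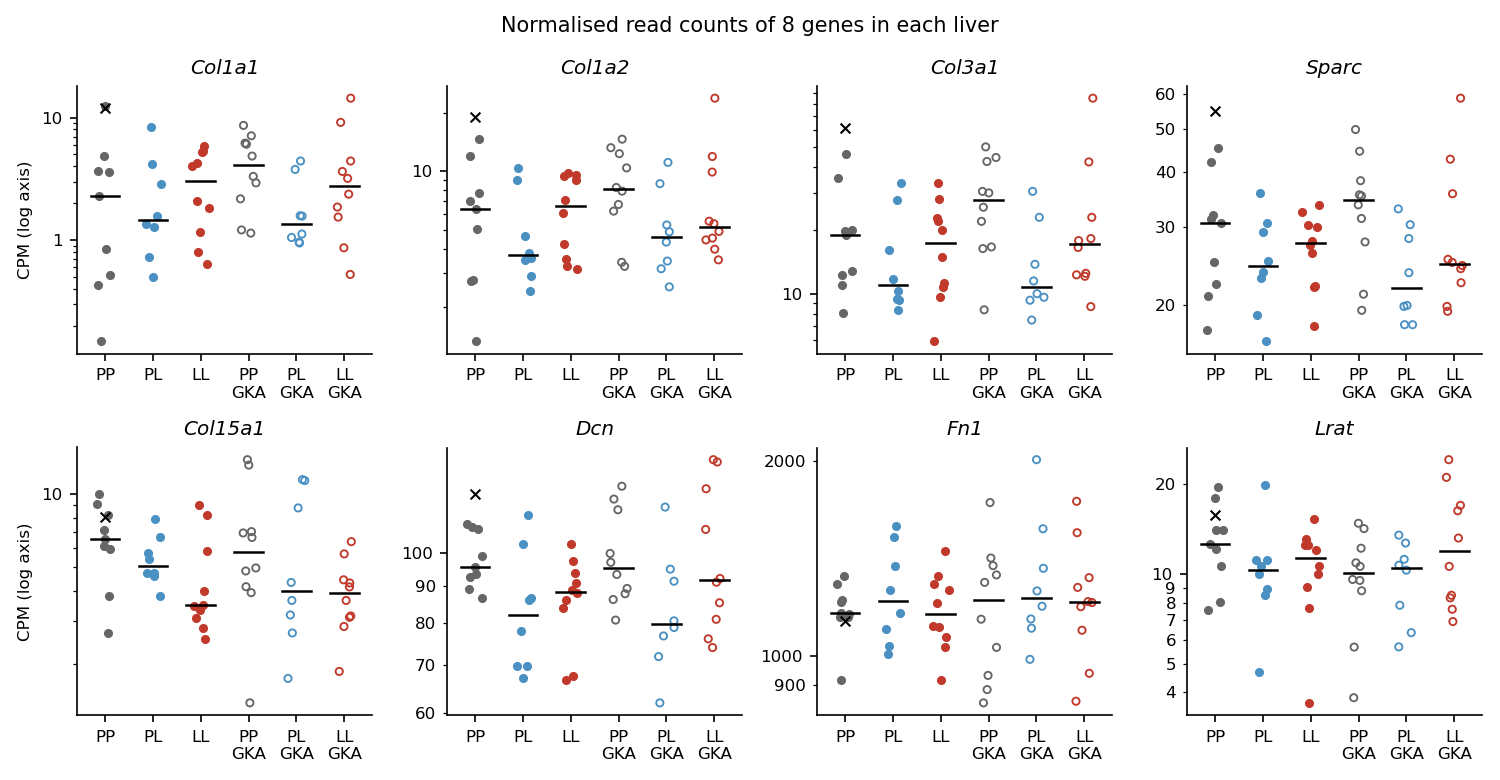
Normalised read counts (CPM, log axis) of 8 genes in each liver, by genotype without GKA (filled) and with GKA (open); bars are medians and the cross is PP mouse 7, which was left out. Col1a1 spans 0.149 to 14.4 CPM with all groups overlapping, while Dcn stays between 62 and 135 CPM.

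The other collagens are given over all mice. Col4a1, a chain of basement membrane collagen, was between 9.42 and 50.8 CPM over all mice (median 18.3) and its partner Col4a2 between 5.77 and 27.7 CPM (median 13.4). Col14a1, which lies on the surface of collagen fibrils, was between 15.4 and 60.7 CPM (median 33.2). Col15a1, a collagen next to basement membranes, had its highest median in PP (6.53 CPM, range 2.67 to 10) and its lowest in LL (3.48 CPM, range 2.53 to 9.01), with overlap of the groups. The type VI collagen genes Col6a1, Col6a2 and Col6a3, which form beaded filaments, had medians of 3.48, 1.61 and 2.45 CPM. Col5a1 had a median of 3.81 CPM and Col5a2 of 1.58 CPM.

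Among the other matrix genes, Bgn and Dcn were the steadiest. The lowest, median and highest levels of Dcn were 86.7, 95.7 and 110.0 CPM in PP, and 66.7, 88.5 and 103 CPM in LL. Bgn was between 37.4 and 72.9 CPM in all mice and Fn1 between 845 and 2013 CPM. Sparc was 16.6 to 58.6 CPM, with medians from 21.8 CPM in PL with GKA to 34.5 CPM in PP with GKA. The proteoglycan Lum (lumican) had a median of 3.27 CPM, the microfibril gene Fbn1 of 1.12 CPM, and Thbs1, which can activate latent TGF-beta, of 0.37 CPM.

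The genes of myofibroblast contraction were low. Acta2, smooth muscle actin, was at most 3.71 CPM. Its medians for the PP and LL groups without GKA were 1.03 and 0.554 CPM, with overlapping ranges (0.299 to 2.98 and 0.141 to 1.42). The same genotypes with GKA had medians of 0.777 and 0.764 CPM. On TPM the medians of PP and LL without GKA were 0.441 and 0.41. Tagln, an actin-binding protein of smooth muscle, had its highest group median in PL (4.73 CPM) and its lowest in LL (2.83 CPM), while PP stood at 3.52 CPM. Vim (vimentin) was between 3.55 and 21.2 CPM. Of the remodelling genes, the membrane metalloproteinase Mmp14 had a median of 14 CPM, the inhibitors Timp3 and Timp2 of 7.61 and 3.93 CPM, and Loxl2 of 1.85 CPM. Mmp2 stood at 0.794 CPM and Loxl1 at 0.319 CPM. Lrat had a median of 10.6 CPM and Reln of 28.2 CPM, while Pdgfrb had 3.7 CPM, Pdgfra 1.81 CPM and Tgfb1, the ligand that drives collagen synthesis, 2.22 CPM.

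The spread within groups was measured as the biological coefficient of variation (BCV) of edgeR over the 6 groups, set against the trend of all genes at the same abundance. Col1a1 had a BCV of 0.80, which was 2.46 times the trend, a ratio above that of 96% of genes. Col3a1 (BCV 0.55) was at 2.37 times and Col1a2 (0.53) at 1.93 times the trend. Col15a1, Tagln, Col4a1 and Lrat lay between 1.42 and 1.51 times the trend. At the other end were Bgn (BCV 0.16), Dcn (0.17), Fn1 (0.20), Timp2 (0.21) and Pdgfrb (0.21), each between 0.63 and 0.67 times the trend. Of the 31 genes with an estimate, 18 (58.1%) lay above the trend, beside 18% of all 11477 genes, and the median ratio was 1.1 beside 0.628.

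**Figure D2:**
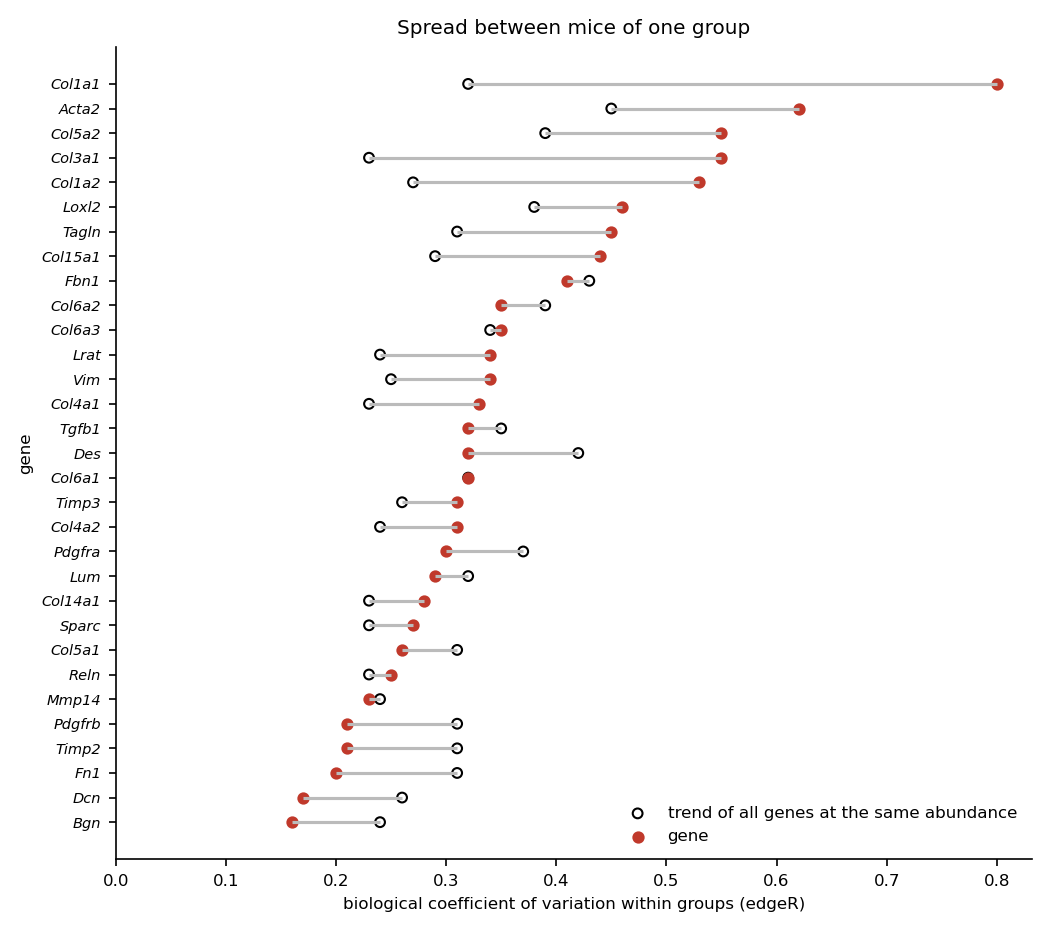
Biological coefficient of variation within groups (edgeR, 55 mice) of 31 genes, with the trend of all genes at the same abundance as open circles. Col1a1, Col3a1 and Col1a2 lie farthest above the trend, while Bgn, Dcn and Fn1 lie below it.

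Much of this spread was shared between genes. With the group means removed, log2 CPM of Col1a1 correlated across 55 mice with Col1a2 at r = 0.89 and with Col3a1 at r = 0.88 (Spearman rho 0.88 and 0.89). In both cases the permutation p was 1e-05, the smallest that 100000 permutations within groups can give, and the adjusted p was 2.55e-05 over the family of 51 correlations. Sparc (r = 0.82), Vim (0.79), Col5a2 (0.73), Col6a3 (0.72) and Col4a1 (0.70) followed, with rho of 0.82, 0.78, 0.74, 0.74 and 0.69. Of the 35 other genes, 28 correlated positively and 1 negatively at an adjusted permutation p below 0.05. Among 11299 other genes above 1 CPM on average, 9.59% had an r at or above 0.35, the lowest r of those 28, and 8.66% had an r at or below that of Fn1. An r above 0.5 was found for 22 of the 35 genes (62.9%), beside 3.6% of these other genes. Fn1 was the negative one (r = -0.33, rho -0.36, adjusted permutation p 0.016), and on log2 TPM its r was 0.15 and did not pass. Mmp2, Mmp14, Col15a1, Des, Pdgfra and Reln did not pass, with r between 0.10 and 0.23. Lrat (r = 0.35, rho 0.31) and Pdgfrb (r = 0.40, rho 0.32) passed.

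Leaving out the 2 mice farthest from the median of Col1a1 gave r = 0.87 for Col1a2 and 0.86 for Col3a1, and 26 positive correlations and 1 negative one passed. Pdgfrb (r = 0.24) and Lox (0.29) then no longer passed. On log2 TPM the values were lower, at r = 0.45 for Col1a2 and 0.54 for Col3a1, and 20 genes passed. Here log2 TPM is log2(TPM + 1), while the median levels of Col1a1 and Col1a2 were 0.275 and 0.779 TPM. TPM summed per gene depends on how reads were divided between long and short transcripts. The average effective length of Col1a1 transcripts ran from 176 to 5759 bases across mice, and that of Col3a1 from 615 to 5393 bases. The cause of the lower r on log2 TPM was not tested.

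**Figure D3:**
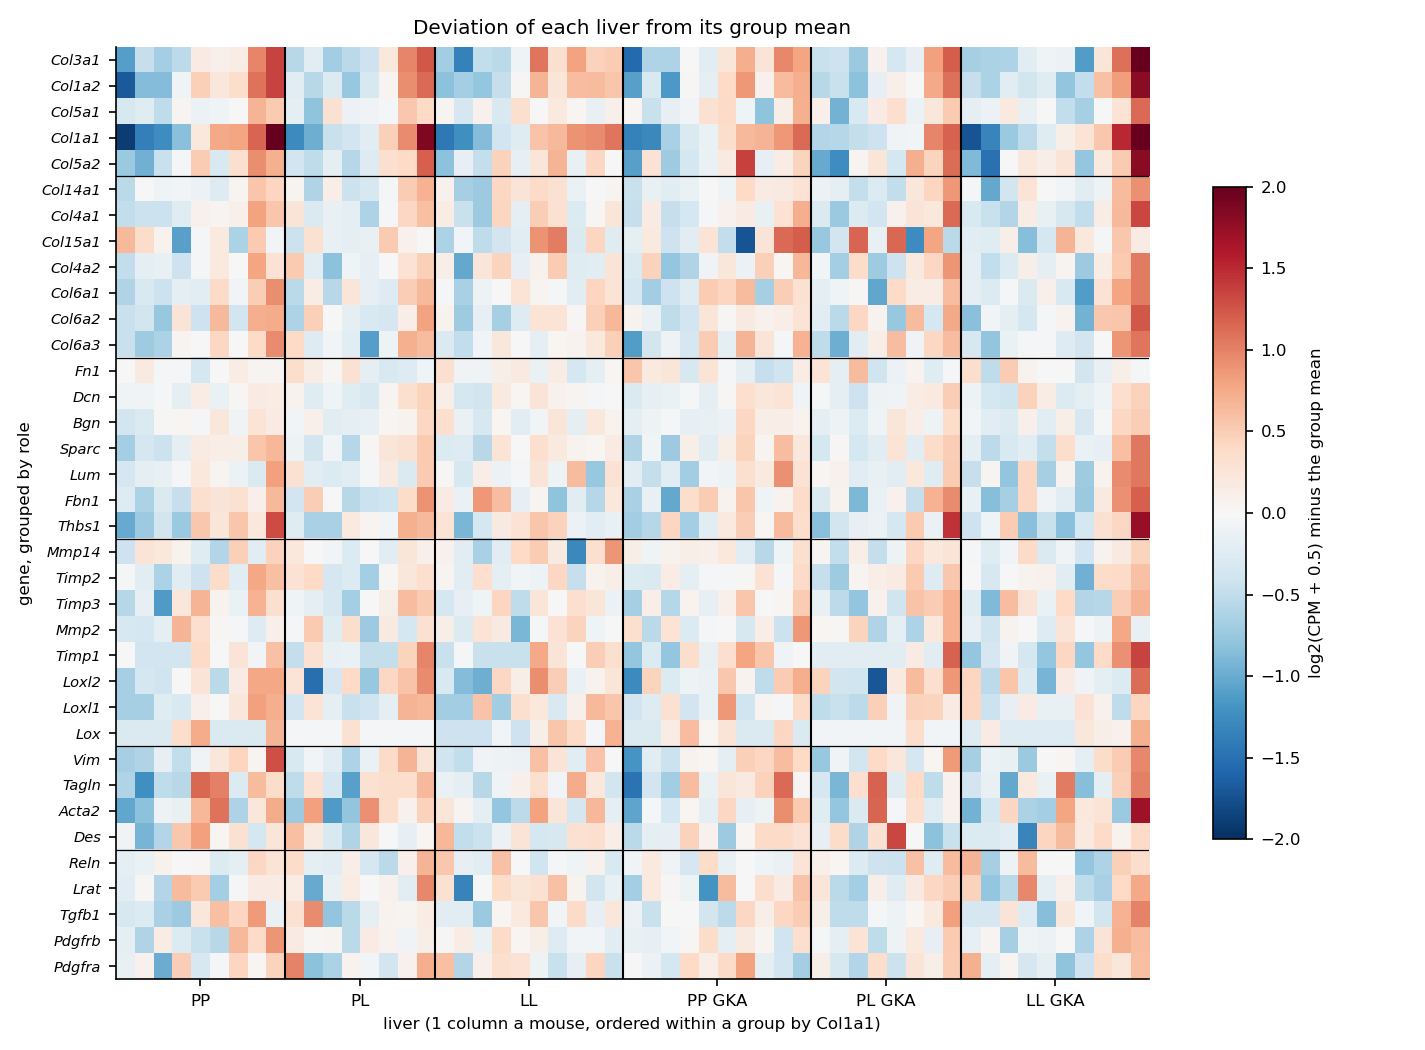
Deviation of each liver from its group mean, as log2(CPM + 0.5), for 36 genes in rows grouped by role and 55 mice in columns ordered within each group by Col1a1. The right-hand livers tend to be high for Col1a2, Col3a1, Sparc and Vim as well, while Fn1 and Reln do not follow. Vim follows less closely in LL, at 7.63 CPM in mouse 38 and 6.48 CPM in mouse 45, where the group ran from 5.29 to 11.7 CPM (median 7.14).

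LL with GKA mouse 48, the highest for Col1a1 in its group, was also the highest of its 10 mice for 27 of the 36 genes. PL with GKA mouse 29 was the highest of 8 mice for 27 genes and PL mouse 22 for 18 genes. In PP mouse 8 led for 13 genes and in PP with GKA mouse 18 for 12 genes, but in LL mouse 38 led for only 5 genes. PP mouse 7, which was left out, lay above all 9 other PP mice for 18 of the 36 genes. In it Col3a1 was 61.6 CPM, where the other PP mice reached at most 46.3 CPM, and Sparc was 54.9 CPM, where they reached at most 45.2 CPM. Its Col1a1 level of 11.9 CPM was below that of PP mouse 8. These counts of genes per mouse were not made over all genes, so they do not show whether matrix genes stood out in these livers.

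Promoters are shown for 3 genes that differ in this pattern, namely Col1a1 and Col3a1, which varied together, and Reln, which did not vary with them. Each is the 250 bases before the annotated start of the canonical transcript in GRCm39, read on the strand of the gene, and lies in no annotated exon. Capitals mark the CCAAT box, the TATA-like motif TATAAA and the GC box motif GGGCGG on either strand (a CCAAT box on the other strand reads ATTGG), and no marked motifs overlap.
Col1a1, chr11:94826800-94827049, plus strand: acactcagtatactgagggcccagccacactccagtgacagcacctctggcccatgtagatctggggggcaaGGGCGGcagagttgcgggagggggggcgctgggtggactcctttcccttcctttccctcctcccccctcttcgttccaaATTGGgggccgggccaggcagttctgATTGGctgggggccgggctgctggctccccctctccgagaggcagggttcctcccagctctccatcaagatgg
Col3a1, chr1:45350448-45350697, plus strand: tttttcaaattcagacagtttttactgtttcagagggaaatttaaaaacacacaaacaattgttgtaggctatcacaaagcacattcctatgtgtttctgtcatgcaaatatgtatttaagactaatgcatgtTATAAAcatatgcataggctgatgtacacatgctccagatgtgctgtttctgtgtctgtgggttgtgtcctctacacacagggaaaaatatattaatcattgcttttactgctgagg
Reln, chr5:22549701-22549950, minus strand: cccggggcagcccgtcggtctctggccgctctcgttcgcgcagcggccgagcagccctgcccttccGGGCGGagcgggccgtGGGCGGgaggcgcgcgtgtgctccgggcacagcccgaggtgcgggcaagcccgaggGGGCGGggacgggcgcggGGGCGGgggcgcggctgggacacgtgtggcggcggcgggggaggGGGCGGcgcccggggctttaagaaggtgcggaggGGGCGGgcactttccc
The Col1a1 window holds CCAAT at 2 positions, starting 99 and 73 bases before the start on the other strand, and GGGCGG at 1 position. Col3a1 has a single TATAAA, 117 bases before the start, and is 35.2% G and C. Reln has GGGCGG at 6 positions and is 80.8% G and C. Over the windows of all 21529 protein-coding genes, 36.3% held CCAAT, beside 16 of the 36 genes (44.4%). The motif GGGCGG was in 36.6% of all windows and in 16 of the 36 (44.4%), and TATAAA in 11.9% and in 2 (5.56%). A match describes the letters only.

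Each pair of neighbouring genes is set beside a pair on different chromosomes, picked as the highest r of the first gene named. A pair picked in this way cannot show whether neighbours are more alike than other genes. Over all 630 pairs of the 36 genes the median r was 0.39 (range -0.48 to 0.92). Col4a1 (chr8:11248423-11362826, minus strand) and Col4a2 (chr8:11362471-11499287, plus strand) overlap head to head at their 5′ ends and correlated at r = 0.78 (rho 0.78, adjusted permutation p 2.55e-05), while Col4a1 had r = 0.82 with Col14a1 on another chromosome. The convergent pair Col3a1 (chr1:45350698-45395840, plus strand) and Col5a2 (chr1:45412554-45542442, minus strand) correlated at r = 0.75 (rho 0.73, same adjusted permutation p), while Col3a1 had r = 0.92 with Col1a2. Col6a1 and Col6a2, neighbours on chromosome 10, correlated at r = 0.65 (rho 0.64), again with the same p, and Col6a1 had r = 0.71 with Col3a1. Reads from the overlap of Col4a1 and Col4a2 cannot be told apart without strand, and the labels do not state a strand setting.

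Marker genes of other cell types were compared with Col1a1 in the same way. The summed adipose list correlated at r = 0.81 (rho 0.83) and the bile duct list at r = 0.74 (rho 0.72), both with an adjusted permutation p of 2.55e-05. The adipose list was 1.56 to 79.5 CPM in single mice, but Adipoq and Lep, which define adipocytes, had 0 reads in all 55 mice, and Plin1, Retn and Adig had at most 1 read in any. The list's reads came from Cidec, a lipid droplet protein that fatty hepatocytes also make (0 to 63.6 CPM, r = 0.83), from Fabp4 (1.28 to 15.9 CPM, r = 0.63) and from Cfd (0 to 4.31 CPM, r = 0.62). Of the bile duct genes, Spp1 (osteopontin, 6.11 to 91.6 CPM) had r = 0.75, while Krt19, Sox9 and Epcam had r between -0.13 and 0.23, and Krt7 and Cftr had 45 and 8 reads in all mice together. The pancreas list had r = -0.69 (rho -0.69, adjusted permutation p 2.55e-05) through Cela1 (6.82 to 51.2 CPM). Prss2, Cpa1, Pnlip and Ctrb1 had 0 reads.

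The lists of other cell types had r closer to 0. The smooth muscle list, which holds Des, had r = 0.51 (rho 0.50) and the neutrophil list r = 0.37 (rho 0.34). The T cell list had r = -0.33 (rho -0.34) and the hepatocyte list r = -0.32 (rho -0.28), but on log2 TPM the hepatocyte list had r = 0.49. Of the T cell genes, Cd4 had r = -0.43, while Cd3g, Trac and Nkg7 had r between -0.11 and -0.014. The other 6 T cell genes beside Cd4 stayed under 1 CPM in all mice. Of the hepatocyte genes, Alb had r = -0.10, Trf 0.10, Apoa2 -0.15 and Ttr -0.19. Serpina1c (-0.67), Fgb (-0.55), Tat (-0.45) and Apoa1 (-0.37) were lower. Adjusted permutation p of these 4 lists lay between 0.000527 and 0.0314. The macrophage (0.26), endothelial (0.22), blood (0.15), mesothelium (0.09), skeletal muscle (0.08) and B cell (0.02) lists did not pass. In all, 7 of 13 lists passed, and 5 without the 2 farthest mice. The part of these cell types in the spread of the collagens was not tested.

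**Figure D4:**
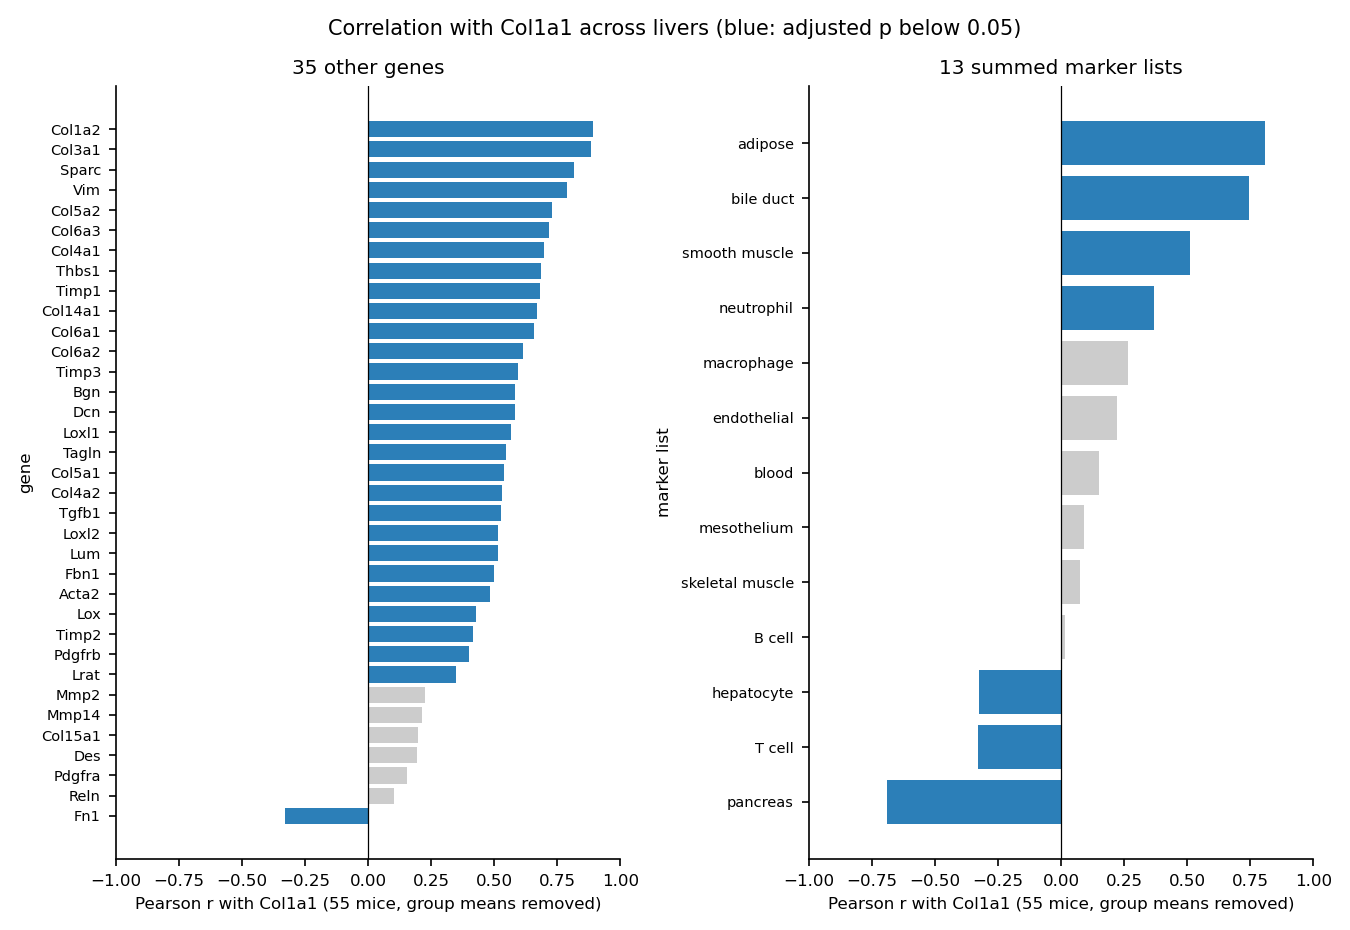
Pearson r of log2 CPM with Col1a1 over 55 mice, group means removed, for 35 other genes and 13 summed marker lists; blue bars passed an adjusted permutation p below 0.05. Col1a2 and Col3a1 head the genes, and the adipose list (Cidec, Fabp4, Cfd) and the bile duct list (Spp1) head the lists.

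Between the groups, none of the 36 genes was called as a differentially expressed gene (DEG) in any of the 12 comparisons by the quasi-likelihood test of edgeR, and none by DESeq2. DEG were defined by an adjusted p below 0.05 over all genes tested together with a rise to 1.3-fold or a fall to 0.7-fold. At an unadjusted p below 0.05, edgeR gave 0 to 10 and DESeq2 0 to 10 genes per comparison. Each comparison below gives the genes with an unadjusted p below 0.05, beside the share of all genes that passed the same limit. Over all genes tested, 48.9% to 52.7% had a positive log2 fold change, depending on the comparison. Many of the 36 genes varied together across mice, so genes counted in the same direction are not separate pieces of evidence.

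For LL against PP without GKA, the question was the effect of the variant on the diet alone. Of 28 genes tested, 7 were higher and 21 lower in LL, with a median log2 fold change of -0.11 beside 0.012 for all genes. An unadjusted p below 0.05 was found for 2 genes (7.14%), beside 11.8% of all genes, and 0 were called, beside 0.0854% of all genes. Tagln had a fold change of 0.616 (log2 fold change -0.70 ± 0.30 SE, adjusted p 0.348 by edgeR) and Dcn of 0.884 (-0.18 ± 0.085, adjusted p 0.414). Tagln reached 10.2 CPM in PP and at most 5.37 CPM in LL, and both groups began under 2 CPM. Col4a2 (fold 0.773) had an adjusted p of 0.438, and a log2 fold change of 0.015 with an offset for transcript length. For Col1a1 the log2 fold change was -0.012 with a 95% interval of -1.18 to 1.16, and for Col3a1 it was -0.19 (interval -0.87 to 0.49). Changes of Col1a1 above 2-fold in either direction lie within that interval, so these data do not show that the level was the same. Lrat had a log2 fold change of -0.28 (interval -0.71 to 0.15). With PP mouse 7 kept, the median was -0.25 and 5 genes had an unadjusted p below 0.05. Over 19 fits without 1 mouse it ran from -0.18 without LL mouse 40 to -0.035 without PP mouse 8.

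For PL against PP without GKA, 22 of 28 genes were lower in PL and the median log2 fold change was -0.20. An unadjusted p below 0.05 was found for 2 genes, both lower (10.1% of all genes passed), and 0 were called beside 0.151% of all genes. Lum had a fold change of 0.694 (log2 fold change -0.53 ± 0.20 SE, adjusted p 0.348 by edgeR) and Dcn of 0.856. The Lum levels were 2.02 to 3.94 CPM in PL and 2.84 to 6.91 CPM in PP. Col15a1 came next with a fold of 0.825 (unadjusted edgeR p 0.214). With an offset for transcript length the direction turned for Dcn (log2 fold change 0.11) and Col15a1 (0.51), and the median was -0.023.

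For LL against PL without GKA, 13 of 29 genes were higher and 16 lower in LL, with a median log2 fold change of -0.0029. An unadjusted p below 0.05 was found for 2 genes beside 4.58% of all genes, and 0 were called beside 0.00942%. Des was lower in LL at a fold of 0.676 (adjusted p 0.968 by edgeR) and Pdgfrb higher at 1.21. Tagln had a fold of 0.767.

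For LL against PP with GKA, 11 of 29 genes were higher and 18 lower in LL (median log2 fold change -0.057). There were 2 genes with an unadjusted p below 0.05, beside 10.4% of all genes, and 0 called beside 0.239%. With an offset for transcript length, 0 genes had an unadjusted edgeR p below 0.05. Col15a1 had a fold of 0.593 (log2 fold change -0.75 ± 0.30 SE, adjusted p 0.351 by edgeR), with 1.86 to 6.38 CPM in LL and 1.38 to 13.9 CPM in PP. Both groups reached down to less than 2 CPM. Mmp14 had a fold of 1.18 (adjusted p 0.479) and Lrat of 1.34 (adjusted p 0.596). Col1a1 had a log2 fold change of -0.032 (interval -0.99 to 0.93) and Col3a1 of -0.20 (interval -0.97 to 0.57), and with an offset for transcript length Col1a1 stood at 0.73. The median log2 fold change was -0.26 without mouse 48 and 0.0042 without mouse 47, both of LL with GKA.

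The comparison of PL against PP with GKA held the most genes with a low unadjusted p. Of 29 genes, 24 were lower in PL, with a median log2 fold change of -0.27 beside -0.00026 for all genes. An unadjusted p below 0.05 was found for 10 genes (34.5%), all lower in PL, beside 8.19% of all genes, and 0 were called beside 0% of all genes. DESeq2 also gave 10 genes. All 5 fibrillar collagen genes and all 7 other collagen genes had a negative log2 fold change. Col3a1 had a fold of 0.502 (log2 fold change -0.99 ± 0.33 SE, adjusted p 0.355 by edgeR), Sparc of 0.707 (adjusted p 0.382) and Col1a1 of 0.446 (-1.16 ± 0.41, adjusted p 0.399). Col3a1 lay at 7.49 to 30.7 CPM in PL with GKA, where mouse 29 and mouse 36 were the highest, and at 8.38 CPM or more in PP with GKA. The remaining 7 were Col14a1, Col6a2, Col5a2, Bgn, Col1a2, Dcn and Pdgfrb, with folds from 0.519 to 0.855.

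These 10 genes are not separate pieces of evidence, since most of them varied together across mice. With mouse 29 left out, the median log2 fold change was -0.42, and over all 18 fits without 1 mouse it lay between -0.42 and -0.22, with 5 to 15 genes at an unadjusted p below 0.05. With an offset for transcript length, 4 genes had an unadjusted p below 0.05. The adipose list, which varied with Col1a1, had a median of 18.5 CPM in PP with GKA (range 1.56 to 52.1) and 5.62 CPM in PL with GKA (range 2.69 to 37.7). The bile duct list had medians of 19.7 CPM (7.67 to 44.3) and 16 CPM (8.65 to 28.2). Of the other lists, the B cell list had medians of 19.9 CPM (10.7 to 29.6) in PP with GKA and 39 CPM (6.15 to 84.7) in PL with GKA, the macrophage list of 326 and 263 CPM, and the clock genes of 237 CPM (192 to 407) and 351 CPM (286 to 411). With a covariate for the clock component, the first principal component of 16 circadian clock genes, the median log2 fold change of the genes was -0.42. The part of these cell type and clock genes in the result was not tested.

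For LL against PL with GKA, the other comparison with these PL mice, 25 of 28 genes were higher in LL with a median log2 fold change of 0.26. An unadjusted p below 0.05 was found for Col1a1 alone, beside 8.6% of all genes, and 0 genes were called beside 0%. Col1a1 had a fold of 2.19 (log2 fold change 1.13 ± 0.54 SE, adjusted p 0.579 by edgeR), Col3a1 of 1.73 and Lrat of 1.36. With an offset for transcript length Col3a1 had a log2 fold change of -0.002. Over 18 fits without 1 mouse, the median log2 fold change ran from 0.12 without mouse 48 to 0.35 without mouse 29, with 0 to 7 genes at an unadjusted p below 0.05.

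GKA had no called effect on these genes in any genotype. For GKA in PP, 24 of 29 genes were higher with GKA (median log2 fold change 0.10), and 0 had an unadjusted edgeR p below 0.05, beside 3.56% of all genes. The smallest p were for Lrat (fold 0.772), Col5a2 (1.51) and Col3a1 (log2 fold change 0.49), each with an adjusted p of 1. For GKA in PL, 9 of 25 genes were higher, and 0 had an unadjusted p below 0.05 beside 3.18% of all genes. Lum (fold 1.19), Pdgfra (log2 fold change 0.38) and Mmp14 (fold 1.12) came first. For GKA in LL, 26 of 28 genes were higher (median log2 fold change 0.16), and 0 had an unadjusted p below 0.05 beside 6.15% of all genes. Dcn (fold 1.16), Timp3 (1.23) and Mmp14 (1.22) had the smallest p, with adjusted p between 0.834 and 0.866. In these 3 comparisons, as in GKA over all genotypes and in the interaction below, 0% of all genes were called.

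Over all genotypes, 21 of 30 genes were higher with GKA (median log2 fold change 0.10), and 0 had an unadjusted edgeR p below 0.05, beside 5.22% of all genes. DESeq2 gave 1. Fbn1 came first with a fold of 1.31 (log2 fold change 0.39 ± 0.20 SE, adjusted p 0.95), then Col6a1 (1.18) and Lum (1.16). In the interaction of GKA with LL genotype, which asks whether the LL effect differs with GKA, 1 of 31 genes had an unadjusted p below 0.05, beside 5.75% of all genes. It was Lrat, with an interaction of 0.71 ± 0.34 SE on the log2 scale (adjusted p 0.867 by edgeR). Its fold for LL against PP was 0.823 without GKA and 1.34 with GKA, on groups that share no mice. Acta2 (interaction 1.18, interval -0.13 to 2.48, and -0.15 with an offset for transcript length) and Tagln (0.76) followed.

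**Figure D5:**
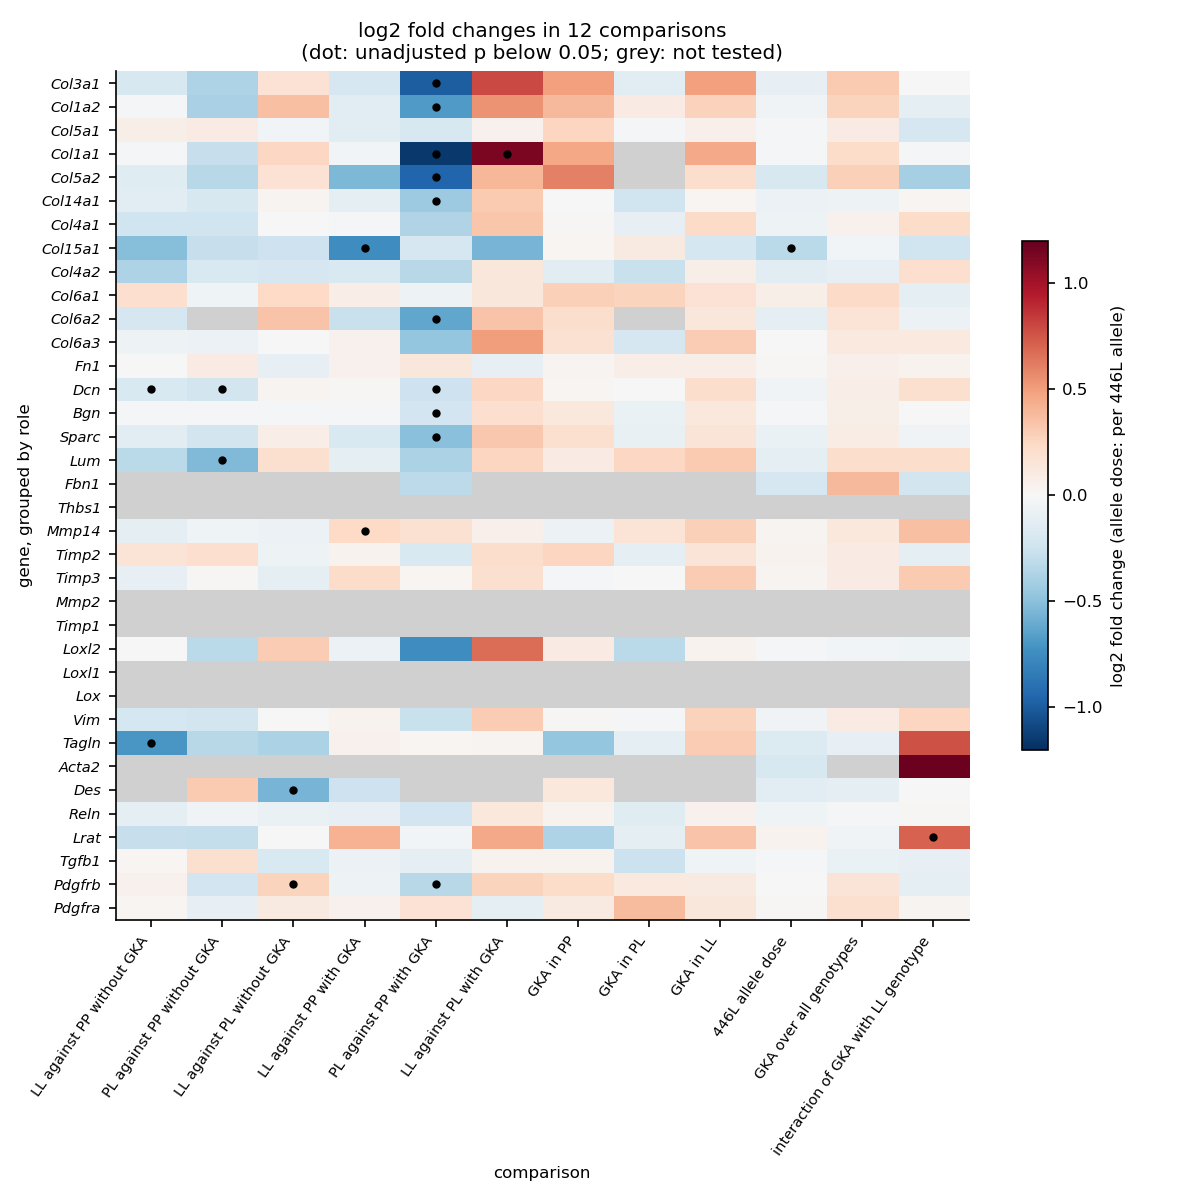
log2 fold changes of 36 genes in 12 comparisons by edgeR, with a dot where the unadjusted p is below 0.05 and grey where a gene was not tested. The column of PL against PP with GKA holds 10 dots, all negative, and no cell was called as a DEG.

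The 446L allele dose, fitted over all 55 mice with GKA as a covariate, called 3.53% of all genes, with no fold threshold. None of the 31 genes tested was called. An unadjusted p below 0.05 was found for 1 gene (3.23%), beside 15.5% of all genes, and the median log2 fold change was -0.04 per allele. Col15a1 was that gene, with a fold of 0.803 per allele (log2 fold change -0.32 ± 0.11 SE, adjusted p 0.0851 by edgeR). Its medians for PP, PL and LL were 6.53, 5.08 and 3.48 CPM without GKA, and 5.8, 3.99 and 3.9 CPM with GKA, so PP was highest in both sets on CPM. On TPM the order differed, with medians of 1.05, 1.37 and 1.27 without GKA, and 1.26, 1.12 and 1.91 with GKA. With an offset for transcript length, 0 of the genes had an unadjusted edgeR p below 0.05 in the allele dose. Col4a2 (fold 0.909) and Fbn1 (0.868) followed. Col1a1 had a log2 fold change of -0.013 per allele (interval -0.38 to 0.35, and 0.0019 with the clock component as a covariate), Col3a1 of -0.10 (-0.35 to 0.16), Acta2 of -0.19 (-0.53 to 0.15) and Lrat of 0.04 (-0.13 to 0.21).

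Other genes of collagen synthesis and matrix turnover were counted in 6 lists. In the collagen processing list, 2 of 15 genes tested were called lower with the allele dose and 0 higher, beside 3.53% of all genes called. P4ha1, the catalytic subunit of prolyl 4-hydroxylase, had a log2 fold change of -0.29 per allele (± 0.079 SE, adjusted p 0.0225 by edgeR). For P3h1, a prolyl 3-hydroxylase, it was -0.17 (± 0.048, adjusted p 0.0346). Both enzymes modify collagen chains in the endoplasmic reticulum. P4ha1 was 4.49 to 8.04 CPM in PP (median 5.84), 2.16 to 4.8 CPM in PL (median 3.02) and 1.76 to 8.7 CPM in LL (median 3.56). With GKA its medians were 4.97, 3.2 and 3.53 CPM. P3h1 had medians of 8.71, 6.83 and 5.78 CPM in PP, PL and LL, and of 8.03, 6.58 and 7.01 CPM with GKA. The LL median was above that of PL for P4ha1 in both sets and for P3h1 with GKA. There the levels did not fall step by step with each allele. P4ha1 was also called for PL against PP without GKA, where 0.151% of all genes were called. Its fold was 0.533 (log2 fold change -0.91 ± 0.16 SE, adjusted p 0.0191 by edgeR), and PP and PL overlapped only between 4.49 and 4.8 CPM. That call was lost with all 6 groups in 1 fit (adjusted edgeR p 0.0759), with an offset for transcript length (0.313) and with the clock component as a covariate (0.114). DESeq2 called P4ha1 there too (adjusted p 0.000417) and also Serpinh1, a collagen chaperone (fold 0.636, adjusted p 0.0139, against 0.0947 by edgeR).

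The other 13 collagen processing genes tested, among them chaperones and lysyl hydroxylases, were not called for the allele dose, and the median of the list was -0.017 per allele. For LL against PP without GKA, P3h1 had a fold of 0.651 (adjusted p 0.0675 by edgeR and 0.00651 by DESeq2) and P4ha1 of 0.657 (adjusted p 0.246). With the clock component as a covariate, the dose effect had an adjusted edgeR p of 0.268 for P4ha1 and 0.248 for P3h1. With an offset for transcript length these were 0.14 and 0.953.

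In the other 5 lists, 0 genes were called by edgeR or DESeq2 in any of the 12 comparisons. In the allele dose, an unadjusted edgeR p below 0.05 was found for 5 of 17 TGF-beta pathway genes, 1 of 2 PDGF genes, 0 of 13 other stellate markers, 1 of 21 other matrix genes and 3 of 9 other proteases and inhibitors (15.5% of all genes passed). Of these lists, 12 of 17 TGF-beta pathway genes, both PDGF genes tested and 15 of 21 other matrix genes had a negative value. The smallest p were for Loxl4, a lysyl oxidase (fold 0.669 per allele, adjusted p 0.061), Itgb5, an integrin that binds latent TGF-beta (0.94, adjusted p 0.0995), Pdgfc (0.86), Mmp19 (0.955), Skil (0.868) and Nid2 (0.881). Loxl4 had a log2 fold change of 0.058 with the clock component as a covariate, and an adjusted edgeR p of 0.0438 with PP mouse 7 kept. For LL against PP without GKA, Smad7 (fold 0.678), Smad3 (0.822), Prelp (0.86) and Adam17 (0.802) came first, with adjusted p of 0.298 or more. For GKA over all genotypes, Cygb, a globin of stellate cells (fold 1.27, adjusted p 0.666), Mmp12 (1.89), Col5a3 (0.84), Plod3 (0.924), Fbln5 (1.23) and Ctsl (1.08) came first.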

How the data were processed

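RNA from 56 mouse livers with an integrity number above 6 was sequenced. The authors trimmed no reads and ran Salmon 1.4.0 on the GENCODE M26 mouse transcripts (GRCm39). The files they deposited give an estimated count for each transcript and mouse, with no normalisation, and per the file headers also TPM and an effective length. Transcripts were assigned to genes in GENCODE vM39 (GRCm39). Of 139225 transcripts, 137570 matched, with at least 99.76% of every mouse's reads. Gene sums of these counts were rounded, giving 5.19 to 8.09 mega reads per mouse (median 6.56). No mice of a group were alike within sampling noise (the smallest chi-square over degrees of freedom of any pair was 12.4). The labels give no batch, litter or harvest time.

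Genes were tested with edgeR 4.0.16 (quasi-likelihood, TMM, filterByExpr) in R 4.3.3 on the groups compared, with Benjamini-Hochberg adjustment over all genes tested. The allele dose and the interaction had no fold threshold. log2 CPM has a prior count of 2. Correlations used 100000 permutations within groups. The alternatives tried were DESeq2 1.42.0, which the authors used, DESeq2 size factors in edgeR, no filter, all 6 groups in 1 fit, an offset for transcript length, a clock covariate, PP mouse 7 kept, and leaving out mice in turn. Scripts were tested on simulated data. Fold changes are given for genes called, otherwise for the 3 with the smallest p in each comparison. They are also given for Col1a1, Col3a1 and Lrat in LL against PP and the allele dose, and for Acta2 in the allele dose. Timp1 was not tested, and Acta2 was not tested in LL against PP. List genes are named where called or among the 2 with the smallest p and an unadjusted p below 0.05. The 36 genes and all lists were chosen with earlier results of these data known. Each sample is 1 mouse by the labels. The PP mouse removed by the authors was left out here too. A gene of the bile duct list is not reported here.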

Additional observations from a re-analysis of the deposited data

Results flagged for a closer look

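In a group of mice, a liver was singled out where its gap to the next, divided by the range of the group on log2 CPM, passed Dixon's 95% limit. This was computed for 36 genes in 6 groups (216 groups), of which chance alone gives about 10.8, and 12 were found.

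Among the genes with more than 20 reads, Col5a1 was 8.98 CPM in LL with GKA mouse 48 (the others 2.22 to 4.71 CPM), and Lum was 6.91 CPM in PP mouse 8 (the others 2.84 to 4.38 CPM). In LL mouse 43, both Col4a2 (5.77 CPM, the others 10.2 to 17.6) and Lrat (3.69 CPM, the others 7.68 to 15.3) were the lowest. Fn1 was 918 CPM in PP mouse 9, where the others were 1146 to 1331 CPM.

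The other 7 rest on 15 reads or fewer. Pdgfrb was 2.03 CPM in PL mouse 21 (the others 3.03 to 3.65), and Timp1 was 0.829 CPM in PL with GKA mouse 29 (the others at most 0.158). Mmp2 was 0.129 CPM in LL mouse 39, Des 0.169 CPM in LL with GKA mouse 49, and Loxl2 had 0 reads in PL with GKA mouse 35. Lox had a single read in PL mouse 21 (0.135 CPM) and in PL with GKA mouse 30 (0.158 CPM), and none in the other mice of these groups.

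PP mouse 7, which no comparison uses, was above all 9 other PP mice for 18 of 36 genes and below all of them for 0. This was not counted over all genes.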

How the results depend on the processing

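The count of called genes stayed at 0 in all 12 comparisons under all 151 alternative fits, which include 75 fits without 1 mouse. The median log2 fold change of the genes moved by over 1.5 times or changed sign in 45 of these fits. It changed sign in LL against PP with GKA without mouse 47 and, from values near 0, in LL against PL without GKA (up to 0.022) and in the interaction (down to -0.0086). In PL against PP without GKA it was -0.023 with the offset for transcript length.

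Of 417 alternative values of single named genes, 13 changed sign, none of them a called gene. With an offset for transcript length, the log2 fold change without GKA was 0.015 for Col4a2 and 0.11 for Prelp in LL against PP, and 0.11 for Dcn and 0.51 for Col15a1 in PL against PP. With GKA it was 0.73 for Col1a1 in LL against PP and -0.002 for Col3a1 in LL against PL. It was -0.00051 for Ctsl in GKA over all genotypes, and -0.15 for Acta2 in the interaction. With the clock covariate it was 0.13 for Col1a1 and 0.0037 for Lrat in LL against PP without GKA, and 0.0019 for Col1a1, 0.0099 for Nid2 and 0.058 for Loxl4 in the allele dose. On TPM, the log2 ratio of the Dcn medians of LL and PP was 0.17 in place of -0.11 on CPM. Beside the lost calls for the allele dose given above, P4ha1 in PL against PP without GKA had an adjusted edgeR p of 0.0759 with all 6 groups in 1 fit, 0.313 with the length offset and 0.114 with the clock covariate, and P3h1 had 0.0719 in the allele dose with no filter. The cause was not tested. P3h1 was called for LL against PP without GKA by DESeq2, with PP mouse 7 kept (adjusted edgeR p 0.043) and in the fit of all 6 groups (0.0101).

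The average effective length behind the length offset had a median SD of 0.534 on the log2 scale across mice, over 11329 genes above 1 CPM. Fits without 1 mouse for PL against PP and LL against PL with GKA were added after seeing the data. Depth limits Timp1, Lox, Loxl1, Mmp2 and Thbs1 most. No paired analysis was possible because every mouse has a number of its own.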

Other observations

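Genes outside the list were ranked by their correlation with Col1a1 across 55 mice, with group means removed, over 11328 genes above 1 CPM on average. This ranking was chosen after the values were seen and is a description, since all points share library, depth and scaling. Col1a2 and Col3a1 stood first and second. The next were Atp9a (r = 0.87), Anxa5 (0.84), Cidec (0.83) and S100a11 (0.82), ahead of Sparc. Cidea (0.81) and Cidec code for lipid droplet proteins, and Anxa5, Anxa2 (0.81) and S100a11 for calcium-dependent membrane-binding proteins. Ly6d (0.81), Lgals1 (0.80), Nap1l1 (0.80), Psap (0.79) and Cd81 (0.78) were also among the first 15. Cidea ranged from 0 to 50.8 CPM between livers, Ly6d from 0.317 to 75.2 CPM and Anxa2 from 5.61 to 95.6 CPM.

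The macrophage list as a sum had r = 0.26 with Col1a1, and its 12 genes differed widely. The r was 0.74 for Gpnmb (0 to 11.6 CPM, no read in 19 of 55 mice), 0.71 for Itgax (0 to 5.99 CPM), 0.63 for Trem2 (0 to 3.23 CPM) and 0.46 for Cd68. Lyz2 (0.37), Cd9 (0.33), Cd5l (0.29), Csf1r (0.24) and Adgre1 (0.22) lay between, and Clec4f (0.049), Vsig4 (0.048) and Marco (-0.0042) were the lowest.

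The lowest r were found for the following genes. Cyp2c54 (r = -0.79, 7.19 to 206 CPM) and Cyp2c50 (-0.76) code for cytochromes P450, Sult2a8 (-0.78, median 481 CPM) for a sulfotransferase, Plg (-0.75) for plasminogen and Lipc (-0.74) for hepatic lipase. Pla1a (-0.76), Entpd8 (-0.76), Cyp4f14 (-0.75), Igfbp2 (-0.75) and Avpr1a (-0.74) were the other genes of the last 10.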
